A study of Mus musculus with 8 samples.

Results

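Genes of mitochondrial protein import and mitochondrial protein quality control were followed in brown adipose tissue of mice that lack the histone demethylase Lsd1 in brown fat cells. The set holds every gene of the count table whose symbol begins with Timm, Tomm, Chchd, Pmpc, Immp, Samm50, Mtx plus a digit, Pam16, Grpel, Romo1, Phb, Lonp1, Clpp, Clpx, Afg3l, Yme1l1, Spg7 or Htra2. That rule found 56 of 23372 genes, and it used names only, not measured values. The RNA-seq libraries came from 4 KO mice, which carry a floxed Lsd1 gene together with Ucp1-Cre, and from 4 control mice, which carry floxed Lsd1. Both groups were C57BL/6 N mice aged 10 weeks, so the floxed allele, the strain and the age are common to them. Ucp1-Cre drives recombination from the promoter of the brown fat gene Ucp1, so other cells of the tissue keep Lsd1, and Ucp1 RNA itself was lower in KO tissue here. The labels do not describe the Cre status of the controls or the sex of the mice. Each library is a separate sample of its group, and p-values reflect no more than the variation among these 8 libraries.

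Almost all mitochondrial proteins are made in the cytosol and are threaded into the organelle by membrane translocases. Precursors enter through the TOM complex of the outer membrane and are then sorted to the outer membrane by SAM, to the inner membrane by TIM22, to the matrix by TIM23, or to the intermembrane space by the Mia40 pathway. Peptidases remove the targeting sequences, and AAA proteases, matrix proteases and prohibitins control the quality of what has been imported. Brown fat is among the tissues richest in mitochondria, and its uncoupling protein Ucp1 belongs to the carrier family, a class of inner membrane proteins that use the TIM22 route.

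Levels are given as CPM, a gene's count set relative to its library size, with TMM factors that make most genes even between libraries. A gene was called lower or higher in KO where its adjusted p from edgeR's quasi-likelihood test was under 0.05. Library totals, with 1 transcript kept per gene, were 23683798 to 28570446. Kdm1a, the gene that encodes Lsd1, had 14.0, 12.2, 13.2 and 13.0 CPM in KO libraries 512, 513, 515 and 516, against 35.3, 36.0, 33.3 and 36.9 CPM in control libraries 511, 514, 517 and 518. It had a log2 fold change of -1.43 with an SE of 0.0742 (edgeR adjusted p = 2.66e-05), and the groups did not overlap. Values by library are given in this same order below. Of 10 brown adipocyte markers, 5 were called lower in KO (Ucp1, Prdm16, Elovl3, Cox8b and Pparg). The sum over all 10 was 6784 to 7523 CPM in KO and 10047 to 13050 CPM in controls. Much of that difference is Ucp1 alone, at a mean of 1377 ± 161 CPM in KO and 4481 ± 1200 CPM in controls (SD, n = 4 each). None of the 10 was at 0 in any library. Cidea, Ppargc1a, Dio2, Plin1 and Adipoq did not pass the test, with edgeR adjusted p = 0.088, 0.941, 0.772, 0.068 and 0.203.

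Most of the import and quality control genes were lower in KO tissue. Of the 55 that passed the filter on low counts, 43 were called lower (78.2%), 0 were called higher and 12 were not called. At an unadjusted p under 0.05, edgeR, DESeq2 and limma-voom likewise gave 0 higher. Among all 14178 genes tested, 18.9% were called lower and 15.4% higher. The median log2 fold change was -0.42 over the import and quality control genes, and -0.01 over all genes tested. Single values lay between -1.23 for Tomm20l and 0.11 for Tomm34, and 54 of the 55 were negative. In 43 of the 55 every KO library lay below every control library, against 19.7% of all genes tested, and in 0 did every KO library lie above. The falls were mostly moderate: 13 of the 55 genes were at least 1.5-fold lower, against 831 of all 14178 genes tested. Tomm20l, which had few counts, is among the 13. In bulk tissue, fewer cells of a type and less RNA per cell cannot be told apart. The gene that missed the filter, Timm8a2, a paralog of Timm8a1, had no read in any KO library and 0.039 and 0.0798 CPM in control libraries 511 and 514, with none in the other controls.

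**Figure D1:**
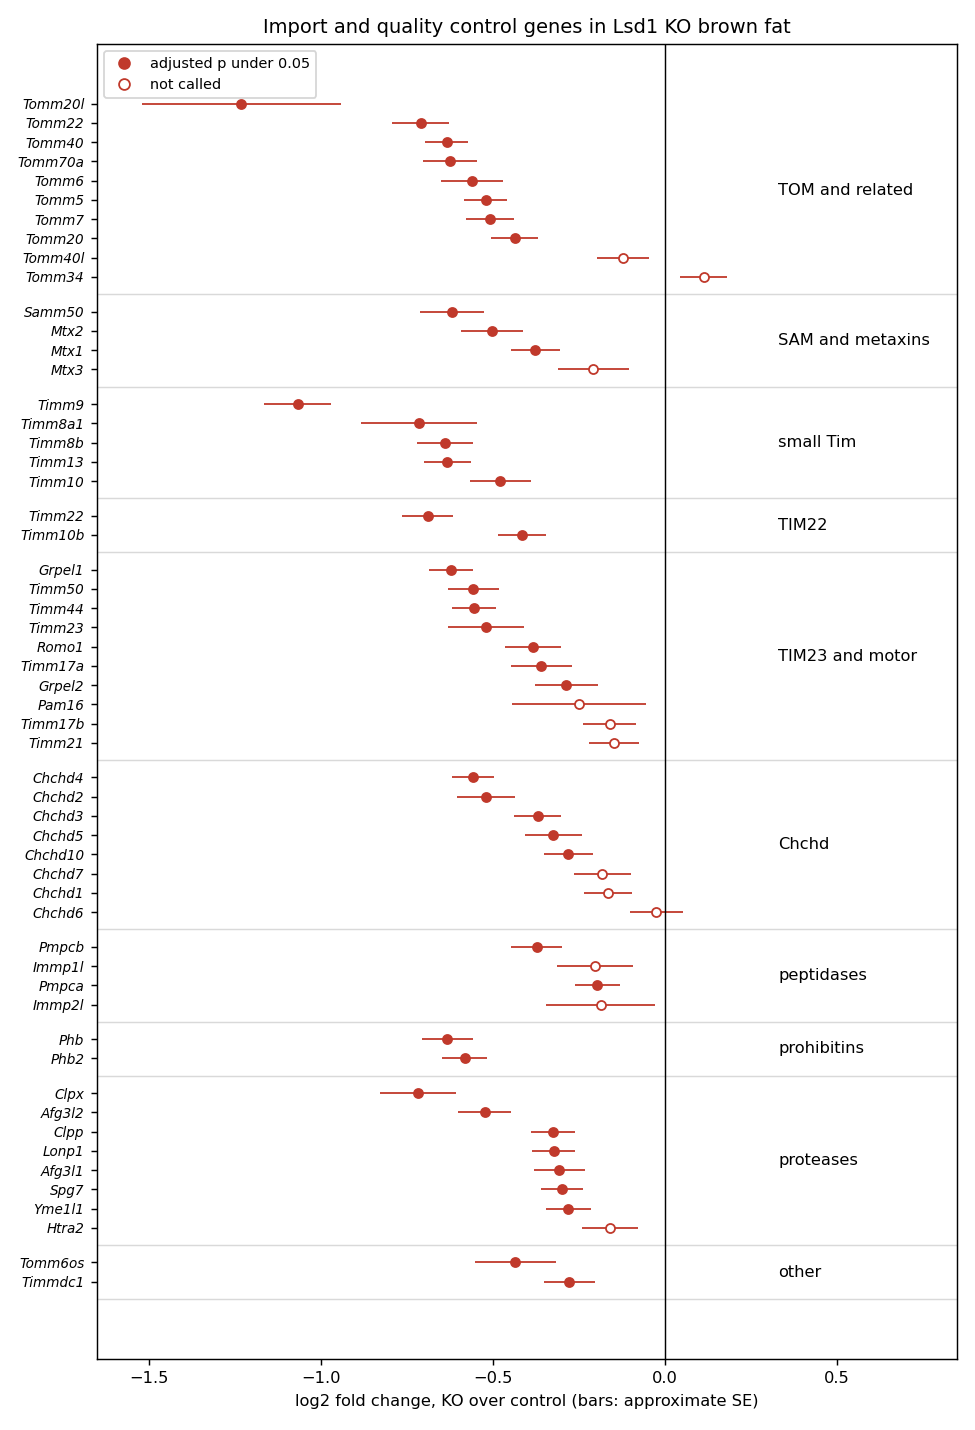
Log2 fold change of KO over control for the 55 tested import and quality control genes, grouped by role, with approximate SE bars. Filled points mark genes called lower by edgeR, and open points the 12 genes not called. All but Tomm34 lie left of 0, and Tomm20l and Timm9 lie farthest left.

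Summed over the set, the KO libraries held 5696, 5414, 5552 and 5676 CPM, against 7349, 7568, 7639 and 7766 CPM in the control libraries. The highest KO sum was thus below the lowest control sum. Within each KO library, 47 to 50 of the 55 genes lay below the lowest control value of the same gene. The share over all genes was not counted for single libraries, so these counts have no background to be read against. The median over genes of the coefficient of variation between libraries was 4.96% in KO and 7.82% in controls. Depth did not limit most of these genes, since 53 had at least 100 counts in every library.

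The TOM complex is the common entry gate of the outer membrane. Of 10 genes named for it, 8 were called lower, and the median log2 fold change was -0.54. Tomm40, the channel of the gate, lies at chr7:19701313-19715429 on the minus strand of mm10. It had 107, 95.3, 102 and 94.1 CPM in the KO libraries, against 156, 153, 156 and 153 CPM in the control libraries. On the log2 scale the change was -0.63 with an SE of 0.0622 (edgeR adjusted p = 0.000285), with a wide gap between groups and controls that were nearly level. Tomm22, the central receptor that gathers precursors for the channel, had 67.8, 67.3, 75.0 and 66.3 CPM in KO, against 100.5, 109.9, 115 and 127 CPM in controls. Its log2 fold change was -0.71 (edgeR adjusted p = 0.000529), again with no overlap. The small subunit Tomm5, which helps to stabilise the complex, had 48.2, 45.4, 50.6 and 47.9 CPM in KO and 67.0, 71.0, 66.1 and 71.5 CPM in controls. The log2 fold change of Tomm5 was -0.52 (edgeR adjusted p = 0.000569).

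Every other receptor and core subunit of TOM moved the same way. Log2 fold changes were -0.44 for the presequence receptor Tomm20, -0.62 for Tomm70a, the receptor that takes carrier precursors, -0.56 for Tomm6 and -0.51 for Tomm7, each with no overlap between groups. Reads of Tomm6 are shared with neighbours: 41.7% of its exon bases lie opposite Tomm6os and Usp49 and 87.6% lie on the same strand as Gm21981. Strand was not used in counting. Tomm40l, a paralog of the Tomm40 channel, did not pass the test. It had 144, 134, 133 and 119.9 CPM in KO, against 148, 155, 140.1 and 135 CPM in controls, with groups that overlap (log2 fold change -0.12, edgeR adjusted p = 0.24). Here 70.1% of the exon bases of Tomm40l lie opposite Nr1i3. Tomm34, a cytosolic cochaperone of precursors rather than a TOM subunit, had 26.5, 27.3, 25.7 and 27.97 CPM in KO and 24.2, 26.6, 24.8 and 23.8 CPM in controls. It was the single gene of the set with a positive value (0.11, edgeR adjusted p = 0.234), and the groups overlap. Tomm20l, a paralog of Tomm20, was close to the detection limit at 0.401, 0.376, 0.237 and 0.262 CPM in KO and 0.546, 0.718, 1.01 and 0.754 CPM in controls, or 6 to 10 counts in KO and 14 to 23 in controls, so it passed the filter on low counts through the control libraries. Its log2 fold change of -1.23 with an SE of 0.289 (edgeR adjusted p = 0.0113) was the lowest of the set, and 8.48% of its exon bases lie opposite Timm9.

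SAM folds barrel proteins such as porins and Tomm40 into the outer membrane. Samm50, its channel, had 326, 318, 312 and 342 CPM in KO, against 434, 469, 514 and 574 CPM in controls. On the log2 scale the change was -0.62 with an SE of 0.0927 (edgeR adjusted p = 0.00152), and the control values ranged wider than the KO values. The metaxins are partners of Samm50 on the cytosolic face. Mtx2 had 119.7, 111, 124 and 122 CPM in KO and 146, 169, 168 and 194 CPM in controls (log2 fold change -0.50, edgeR adjusted p = 0.00334). Mtx1 had 46.9, 49.2, 49.2 and 50.1 CPM in KO and 58.0, 61.5, 63.7 and 70.5 CPM in controls (-0.38, edgeR adjusted p = 0.00455). For both, KO lay wholly below control. The paralog Mtx3 had 65.9, 60.5, 58.7 and 56.0 CPM in KO and 72.0, 78.3, 71.7 and 56.5 CPM in controls, which overlap, and it did not pass (-0.21, edgeR adjusted p = 0.147).

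The small Tim chaperones carry hydrophobic precursors across the intermembrane space, and all 5 that were tested were called lower, with a median log2 fold change of -0.64. Timm9, at chr12:71123172-71136675 on the minus strand, pairs with Timm10 in the main chaperone ring and moved most among genes of the set above 1 CPM. It had 25.8, 27.98, 28.5 and 29.7 CPM in KO, against 50.4, 56.7, 59.4 and 67.9 CPM in controls. This is a log2 fold change of -1.07 with an SE of 0.0966 (edgeR adjusted p = 0.0002), and the gap between groups was larger than the range within either. Its ring partner Timm10 had a log2 fold change of -0.48 (edgeR adjusted p = 0.00392). Timm13 forms a further ring with Timm8a1, to which Timm8b is related. Timm13 had 114, 109, 118 and 105 CPM in KO and 166, 188, 172 and 166 CPM in controls (-0.63, edgeR adjusted p = 0.000431). Timm8b had 48.0, 41.7, 41.2 and 39.8 CPM in KO and 68.1, 65.3, 60.6 and 71.9 CPM in controls (-0.64, edgeR adjusted p = 0.000777). Timm8a1 was also lower (-0.71, edgeR adjusted p = 0.0117) at a mean of 5.77 ± 0.969 CPM in KO and 9.47 ± 1.80 CPM in controls (SD, n = 4 each), and 43.1% of its bases occur in near-identical copies elsewhere.

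TIM22 inserts carrier proteins into the inner membrane. Timm22, its channel, had 28.6, 28.02, 30.8 and 27.2 CPM in KO, against 50.6, 44.6, 43.1 and 46.7 CPM in controls. On the log2 scale the change was -0.69 with an SE of 0.0736 (edgeR adjusted p = 0.000402), with no overlap. Timm10b, the small Tim that is bound to this translocase, had 32.3, 30.6, 32.4 and 33.1 CPM in KO and 40.5, 43.9, 40.3 and 46.7 CPM in controls (-0.42, edgeR adjusted p = 0.00252). Its reads are shared with a neighbour, since 53.0% of its exon bases lie on the same strand as Gm45799. The receptor, chaperones and channel of the carrier route (Tomm70a, Timm9, Timm10, Timm22 and Timm10b) were thus all called lower.

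**Figure D2:**
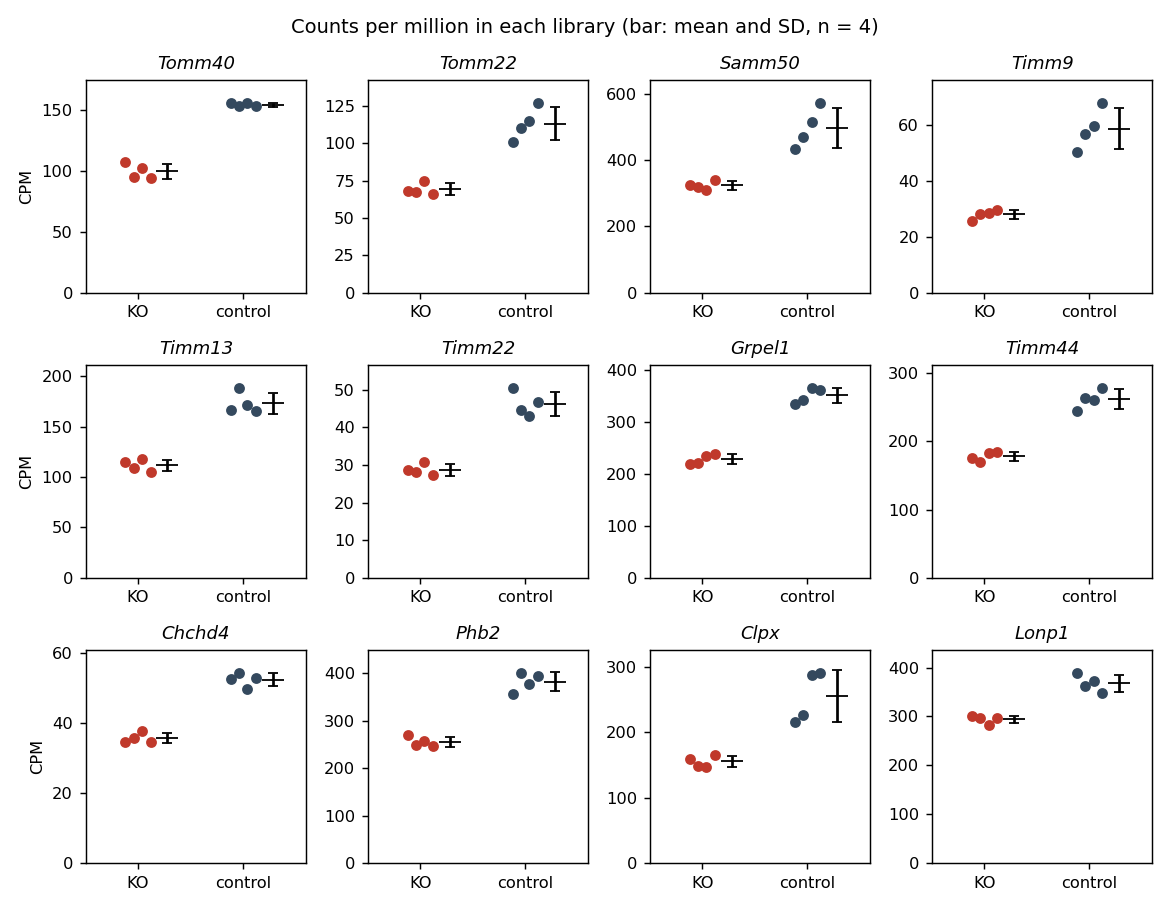
CPM of 12 genes of import and quality control in each KO and control library, with the mean and SD of 4 libraries beside the points. In each panel every KO point lies below every control point.

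TIM23 and its motor pull presequence proteins into the matrix, and 7 of 10 genes were called lower, with a median log2 fold change of -0.37. Grpel1, the nucleotide exchange factor of the Hsp70 motor, had 219.6, 221, 234 and 239 CPM in KO, against 334, 343, 366 and 361 CPM in controls (-0.62, SE 0.0644, edgeR adjusted p = 0.000359). Timm44, which anchors that motor to the channel, had 176, 170.4, 183 and 185 CPM in KO and 244, 264, 261 and 279 CPM in controls (-0.55, edgeR adjusted p = 0.000533). Timm50, the presequence receptor, had 90.7, 90.2, 95.7 and 94.8 CPM in KO and 124, 138, 132 and 152 CPM in controls (-0.56, edgeR adjusted p = 0.000844). None of these overlapped between groups. The channel subunit Timm23 was lower as well (-0.52), but 95.6% of its bases occur with at least 97% identity in 4 other genes, so its own level is uncertain. Timm17a (-0.36), Romo1 (-0.38) and Grpel2 (-0.29) complete the called genes. Romo1 is the homolog of yeast Mgr2, and 26.0% of its exon bases lie opposite Nfs1. The 3 genes not called were Timm17b, Timm21 and Pam16. Timm21, which links TOM with TIM23, had 57.7, 55.8, 57.4 and 58.1 CPM in KO and 59.0, 71.5, 59.9 and 63.2 CPM in controls. Those values do not overlap, but the log2 fold change of -0.15 did not pass (edgeR adjusted p = 0.145). Pam16, a regulator of the motor, was counted at a mean of 1.01 ± 0.139 CPM in KO and 1.20 ± 0.159 CPM in controls (SD, n = 4 each), and 89.6% of its bases occur in another gene.

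The Chchd family shares a fold held by disulfide bonds. Of 8 genes, 5 were called lower, with a median log2 fold change of -0.30. Chchd4, known as Mia40, is the receptor that imports and oxidises small intermembrane space proteins. It had 34.6, 35.7, 37.5 and 34.4 CPM in KO, against 52.5, 54.3, 49.7 and 52.8 CPM in controls (-0.56, SE 0.0607, edgeR adjusted p = 0.000433), a gap far wider than either range. Chchd2, a small protein of the intermembrane space, had 149, 149, 165 and 159 CPM in KO and 199, 209.7, 235 and 248 CPM in controls (-0.52, edgeR adjusted p = 0.00201), and 50.8% of its bases occur in 3 other genes. Chchd3, a subunit of the cristae organising complex MICOS, had 359, 323, 323 and 322 CPM in KO and 440.5, 445, 411 and 418 CPM in controls (-0.37, edgeR adjusted p = 0.00354). Chchd6, its paralog in MICOS, did not pass, and its groups overlap. It had 54.5, 52.6, 49.9 and 55.7 CPM in KO and 59.4, 56.6, 51.3 and 49.1 CPM in controls (-0.03, SE 0.0773, edgeR adjusted p = 0.824). Chchd1, a protein of the small mitochondrial ribosomal subunit, had 60.9, 56.1, 59.3 and 58.0 CPM in KO and 62.8, 69.4, 60.3 and 70.4 CPM in controls, which overlap (-0.17, edgeR adjusted p = 0.0942). Chchd10, the paralog of Chchd2, was called lower by less (-0.28, edgeR adjusted p = 0.0149).

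Chchd10 also had the highest level per transcript length in the set, 566 ± 35.8 CPM per kilobase in KO and 688 ± 23.5 CPM per kilobase in controls (SD, n = 4 each). Samm50 followed with 198 ± 7.93 CPM per kilobase in KO and 303 ± 36.9 in controls, and Chchd3 with 234 ± 12.8 in KO and 303 ± 11.8 in controls. These control levels of Samm50 and Chchd3 differ by far less than their spread. Over the 55 genes, Spearman's correlation of the log2 fold change with the control level per kilobase was -0.222, and that with transcript length was 0.0781. Both are descriptions over genes of the same libraries.

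Of the 4 genes for peptidases that cut targeting sequences 2 were called lower, and their median log2 fold change of -0.20 was the nearest to 0 of all roles. Pmpcb, the catalytic subunit of the matrix processing peptidase, had 223, 207, 214 and 244 CPM in KO, against 296, 282, 304 and 268 CPM in controls (-0.37, SE 0.0748, edgeR adjusted p = 0.00563). Pmpca, its regulatory subunit, had 177, 176, 168 and 182 CPM in KO and 217, 195, 206 and 189 CPM in controls. Its log2 fold change of -0.20 barely passed (edgeR adjusted p = 0.045), and it turned to 0.003209 with library sizes alone and no TMM factors. In addition, 27.9% of the exon bases of Pmpca lie opposite Inpp5e. Immp2l, a subunit of the inner membrane peptidase, had 23.6, 22.8, 25.4 and 29.1 CPM in KO and 33.3, 32.7, 28.8 and 19.98 CPM in controls. Control 518 was lower than every KO library, and the gene did not pass (-0.19, edgeR adjusted p = 0.389), nor did Immp1l (-0.20, edgeR adjusted p = 0.18). Of the bases of Immp1l, 52.3% occur in 1 other gene.

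Prohibitins form large rings in the inner membrane that act as a scaffold for its proteases. Phb2 had 269.5, 248, 258 and 247 CPM in KO, against 357, 401, 378 and 394 CPM in controls (-0.58, SE 0.0664, edgeR adjusted p = 0.000495). Phb had 45.9, 47.2, 46.0 and 54.4 CPM in KO and 77.0, 71.5, 77.1 and 74.2 CPM in controls (-0.63, SE 0.0732, edgeR adjusted p = 0.000524). Both ring subunits were lower in every KO library than in every control library. The level of Phb is uncertain, since 51.5% of its bases occur in 3 other genes.

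Of the 8 protease genes 7 were called lower, with a median log2 fold change of -0.31. Clpx, the unfoldase of the ClpXP matrix protease, moved most. It had 159.7, 149, 147 and 165 CPM in KO, against 216, 227, 288 and 291 CPM in controls (-0.72, SE 0.11, edgeR adjusted p = 0.00166), with no overlap and a wide range among controls. Afg3l2, a subunit of the m-AAA protease that degrades inner membrane proteins, had 329.6, 307, 322 and 323 CPM in KO and 404, 466, 473 and 499 CPM in controls (-0.52, edgeR adjusted p = 0.00147). Lonp1, the main protease of oxidised matrix proteins, had 300.1, 297, 283 and 297 CPM in KO and 389, 361, 373 and 349 CPM in controls (-0.32, edgeR adjusted p = 0.00481). The others called lower were Clpp, the peptidase of ClpXP (-0.33), the m-AAA subunits Afg3l1 (-0.31) and Spg7 (-0.30), and the i-AAA protease Yme1l1 (-0.28). Htra2, a serine protease of the intermembrane space, had 45.2, 43.2, 45.3 and 45.5 CPM in KO and 55.8, 50.2, 50.8 and 43.2 CPM in controls. These overlap and did not pass (-0.16, edgeR adjusted p = 0.155), and 34.0% of its exon bases lie opposite Loxl3 and Aup1.

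The rule also took in genes outside import and quality control by name. Timmdc1, an assembly factor of complex I, had 51.4, 45.9, 48.3 and 46.7 CPM in KO, against 63.5, 60.8, 55.0 and 54.0 CPM in controls (-0.28, SE 0.0743, edgeR adjusted p = 0.0194). Tomm6os, a noncoding transcript opposite Tomm6, had 25.7, 23.1, 21.9 and 25.4 CPM in KO and 36.8, 34.5, 32.9 and 25.6 CPM in controls. It was called (-0.43, edgeR adjusted p = 0.0199) although control 518 lay within the KO range, and 48.9% of its exon bases lie opposite other genes, Tomm6 among them. Leaving out any single library lowered the number of genes called lower, over all genes, from 2682 to between 1900 and 2655. Some calls in the set likewise ended when a single library was left out. That of Chchd10 ended without KO 513, that of Timmdc1 without KO 513 or KO 516, and that of Tomm6os without KO 513 or KO 515. The call of Grpel2 ended without any one of the KO libraries and without control 514 or 518, and that of Pmpca without any one of the KO libraries and without control 511, 514 or 517.

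Related genes were set against each other by the log2 ratio of their counts within a library, a measure that no scaling between libraries can change. Pmpcb and Pmpca are subunits of 1 enzyme, as are Clpx and Clpp, and the other pairs are paralogs. The 13 pairs were chosen after the values above had been seen. Reads of other genes may enter some ratios, since strand was not used in counting. Opposite Nr1i3 lie 70.1% of the exon bases of Tomm40l, and opposite Inpp5e 27.9% of those of Pmpca. Tomm40 over Tomm40l had a mean log2 ratio of -0.41 ± 0.06 in KO and 0.10 ± 0.09 in controls (SD, n = 4 each), a difference of -0.51. Grpel1 over Grpel2 differed by -0.34, with 2.91 in KO and 3.26 in controls. For Chchd3 over Chchd6 the difference was -0.35, with 2.64 in KO and 2.99 in controls, and for Pmpcb over Pmpca it was -0.18, with 0.33 in KO and 0.51 in controls. In these 4 pairs KO and control ratios did not overlap, and each had p = 0.0286 in an exact two-sided permutation test of 4 against 4 libraries, the smallest value such a design can give. Adjusted over the 13 pairs this was 0.0929, so none passed 0.05. With 4 libraries a group, this adjustment could pass only if most pairs had the smallest possible p, so it decides little. The ratios of the other 9 pairs overlapped between groups. Among those, the prohibitin ratio Phb2 over Phb differed by 0.05 (exact permutation p = 0.629) and Clpx over Clpp by -0.38 (exact permutation p = 0.0571).

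**Figure D3:**
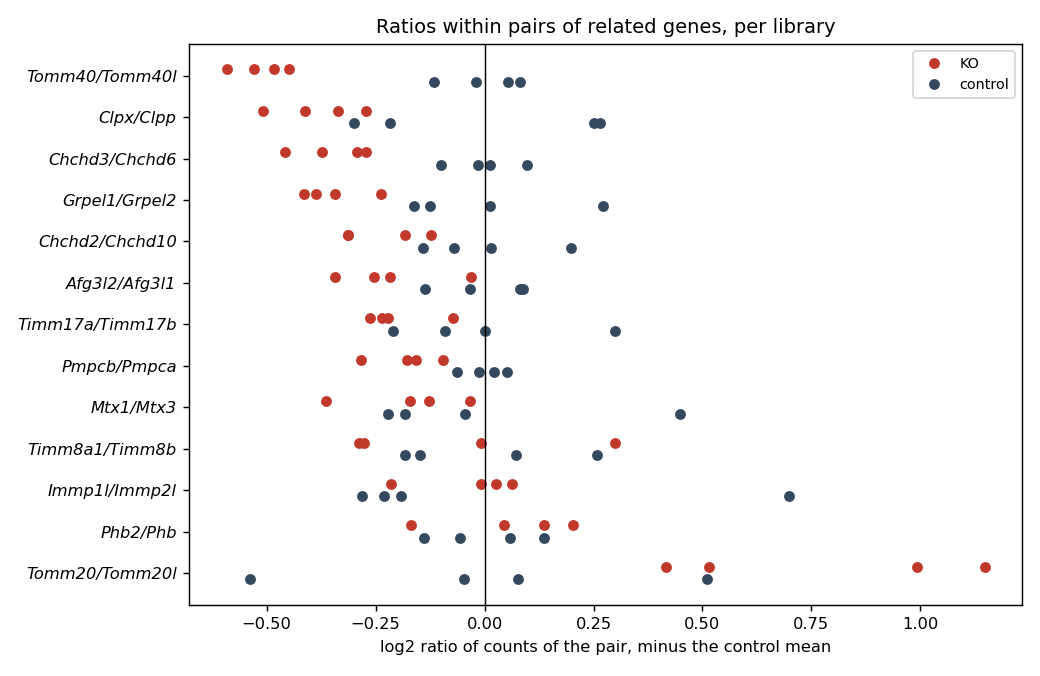
Log2 ratio of counts within 13 pairs of related genes, 1 point per library, with the control mean of each pair set to 0. KO points lie apart from control points in the pairs Tomm40/Tomm40l, Chchd3/Chchd6, Grpel1/Grpel2 and Pmpcb/Pmpca, and overlap in the other 9.

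A further 29 genes that the rule does not cover were read beside the set: genes of import, quality control and MICOS, and 3 stress transcription factors. Of these, 23 were called lower (79.3%), 0 higher and 6 were not called, with a median log2 fold change of -0.46. Over all genes tested, 18.9% were called lower and 15.4% higher. The 29 genes were chosen with earlier results of these data known, so their count is not independent support. In import 9 of 11 were called lower. Xpnpep3, an aminopeptidase that trims imported proteins, had 15.6, 15.2, 12.5 and 13.7 CPM in KO, against 26.5, 25.8, 29.5 and 25.6 CPM in controls (-0.91, SE 0.096, edgeR adjusted p = 0.000374). Mtch2, an insertase of the outer membrane, had 341, 309.8, 323 and 343 CPM in KO and 495, 488, 529 and 503 CPM in controls (-0.61, edgeR adjusted p = 0.000402). Dnajc15, a J protein of the import motor, had 133, 122, 142 and 137 CPM in KO and 193, 207, 212 and 236 CPM in controls (-0.67, edgeR adjusted p = 0.000595). All these import genes lay wholly below control in KO. The motor Hsp70 itself, Hspa9, was also called lower (-0.48).

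In quality control 9 of 10 were called lower. Lace1, known as Afg1l in RefSeq, is an ATPase homologous to yeast Afg1. It had 94.5, 92.9, 99.6 and 95.2 CPM in KO, against 158, 145, 173 and 140.2 CPM in controls (-0.69, edgeR adjusted p = 0.000473). Dnaja3, a J protein of the matrix, had 273, 263, 276 and 277 CPM in KO and 378, 403, 432 and 409 CPM in controls (-0.57, edgeR adjusted p = 0.000484). Stoml2, which assembles with inner membrane proteases, had 60.2, 58.2, 59.8 and 62.8 CPM in KO and 80.9, 77.1, 86.4 and 89.2 CPM in controls (-0.47, edgeR adjusted p = 0.00117). Again no groups overlapped. The matrix chaperonin subunits Hspd1 (-0.60) and Hspe1 (-0.96) fell too.

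Of 5 further MICOS genes 4 were called lower. Immt, its core subunit, had 736, 714, 745 and 779 CPM in KO, against 992, 1010.0, 1020.0 and 1013 CPM in controls (-0.44, edgeR adjusted p = 0.00117). Minos1, known as Micos10, had 198, 183, 209 and 201 CPM in KO and 255, 292, 259 and 280.2 CPM in controls (-0.46, edgeR adjusted p = 0.00186). 2410015M20Rik, known as Micos13, had 140.4, 145, 159.9 and 160.4 CPM in KO and 201, 214, 196 and 195 CPM in controls (-0.41, edgeR adjusted p = 0.00259). These 3 subunits lie between -0.46 and -0.41, beside -0.37 for Chchd3. Of 3 transcription factors of the mitochondrial stress response, Atf5 was the single one called. It had 151, 122, 120.0 and 126 CPM in KO, against 258, 183, 188 and 183 CPM in controls (-0.65, SE 0.129, edgeR adjusted p = 0.00545). Atf4 (0.03, edgeR adjusted p = 0.913) and Ddit3 (0.21, edgeR adjusted p = 0.42) did not pass, with groups that overlap.

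Other nuclear genes of the organelle were counted in the same way. Of 77 tested mitochondrial ribosomal protein genes, 71 were called lower (92.2%) and 0 higher, with a median log2 fold change of -0.46. Of 45 tested genes of complex I, 35 were called lower (77.8%) and 0 higher, with a median of -0.32. At an unadjusted p under 0.05, edgeR gave 1 gene of complex I higher, which DESeq2 and limma-voom called, and 0 of the ribosomal genes or of the 29 genes above. No test of a difference between these lists was made, and no list is called particular from these counts.

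How far the calls go depends on the scaling. With upper quartile factors, 35 of the 55 import and quality control genes were called lower (63.6%, against 11.5% of all genes) and 0 higher (against 20.6% of all genes). With library sizes alone, 26 were called lower (47.3%, against 6.56% of all genes) and 1 higher, Tomm34, while 28.8% of all genes were called higher. These scalings moved the median log2 fold change of all genes by 0.103 and 0.199. Of the mitochondrial ribosomal protein genes, 58 were called lower with upper quartile factors (75.3%) and 45 with library sizes alone (58.4%), with 0 higher in both. Of the complex I genes, 21 were called lower with upper quartile factors (46.7%) and 1 higher, and 11 lower with library sizes alone (24.4%) and 2 higher. Of the 29 other genes, 17 were called lower under either scaling (58.6%), with 0 higher with upper quartile factors and 1 with library sizes alone. Relative to the median of all genes, the median of the set was -0.40 with TMM, -0.40 with upper quartile factors and -0.41 with library sizes alone. With library sizes alone the called genes that did not pass included Mtx1, Timm10b, Timm17a, Romo1, Chchd3, Pmpcb, Lonp1, Clpp and Spg7, besides all those lost with upper quartile factors (Grpel2, Chchd10, Chchd5, Pmpca, Afg3l1, Yme1l1, Timmdc1 and Tomm6os). Across the 16 alternatives tried, 26 of the 43 called genes passed in all.

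**Figure D4:**
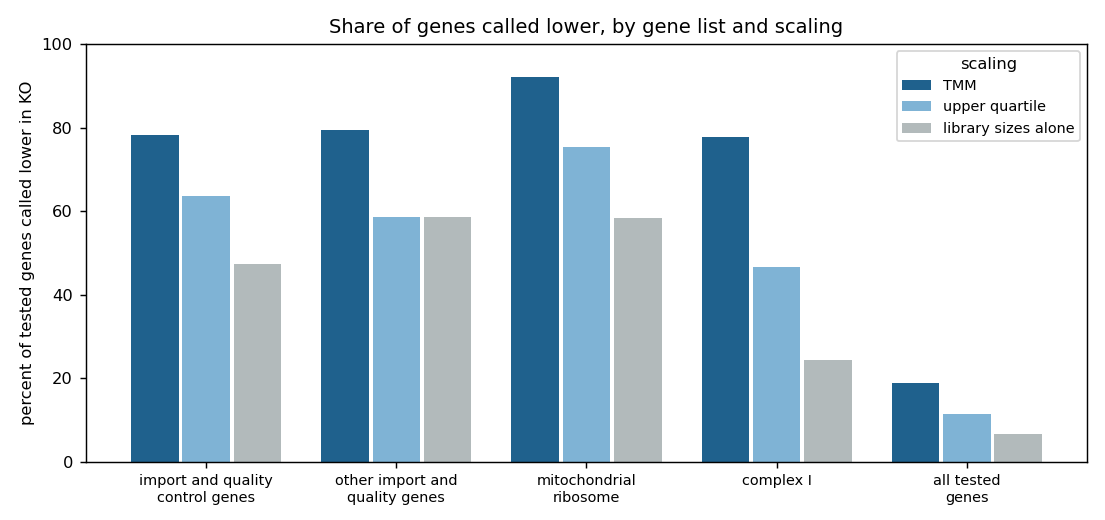
Percent of tested genes called lower in KO by edgeR, for 4 gene lists and for all tested genes, under 3 scalings between libraries. The share of import and quality control genes called lower was 78.2%, 63.6% and 47.3%, and that of all tested genes 18.9%, 11.5% and 6.56%.

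Markers of other cell types were read in the same libraries. The 10 skeletal muscle markers summed to 12552, 8314, 7421 and 5822 CPM in KO, against 3486, 216.2, 2938 and 4878 CPM in controls. None of the 10 was at 0, all had a positive log2 fold change (median 1.54), and edgeR called 2 higher, Myh2 and Mb. With limma-voom and sample weights all 10 muscle markers were called higher. The muscle sum was above the brown adipocyte sum in KO 512 (12552 against 6784 CPM) and KO 513 (8314 against 6946 CPM). All KO libraries had a higher muscle sum than all controls, so the muscle difference runs with the groups, and its part in the lower import and quality control genes was not tested. An alternative chosen after the data were seen left out KO 512 and control 514, the libraries at the extremes of the muscle sum. It gave 40 genes of the set called lower and 0 higher, against 14.2% and 12.7% of the 14250 genes then tested, and the calls of Grpel2, Pmpca and Tomm6os ended. The muscle sums of the remaining libraries were still apart, at 5822 to 8314 CPM in KO and 2938 to 4878 CPM in controls, so this count does not bear on muscle RNA. Macrophage markers summed to 144.7 to 218.3 CPM in KO and 82.9 to 151.4 CPM in controls, with 4 of 5 tested called higher. The 6 fibroblast markers summed to 1637 to 2567 CPM in KO and 847.6 to 1986 CPM in controls, with 0 called by edgeR, DESeq2 or limma-voom, and 0 at an unadjusted p under 0.05 in edgeR against 2 in DESeq2. Of 5 Schwann cell markers edgeR and limma-voom each called 1 higher, and DESeq2 called 2. In edgeR 2 of them were higher at an unadjusted p under 0.05. Of the tested lymphocyte, endothelial, smooth muscle and erythroid markers edgeR called 0 either way. At an unadjusted p under 0.05 it gave 2 erythroid markers higher and 1 endothelial marker each way, and DESeq2 and limma-voom each called 1 erythroid marker higher. The part of these cells in the result was not tested.

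**Figure D5:**
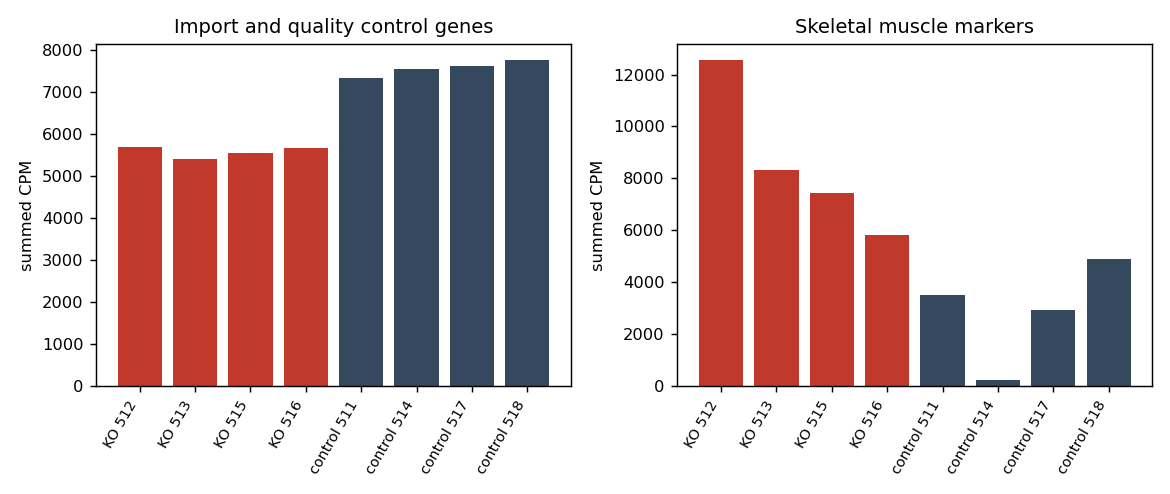
Summed CPM of the import and quality control genes (left) and of 10 skeletal muscle markers (right) in each library. The KO libraries lie between 5414 and 5696 CPM on the left, all below the controls, and between 5822 and 12552 CPM on the right, all above the controls.

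In the authors' deposited table of their own comparison, 34 of the 56 genes had a lower value at an FDR under 0.05 (60.7%) and 0 a higher one. The shares over all 23372 genes of that table were 7.98% lower and 8.76% higher. These shares include genes with counts too low to test here, unlike the 18.9% and 15.4% of the edgeR test above. In the authors' deposited table the median log2 fold change of the 56 genes was -0.442. Genes called lower by the edgeR test here and not in the authors' deposited table were Grpel2, Chchd10, Chchd5, Pmpca, Lonp1, Afg3l1, Spg7, Yme1l1 and Timmdc1.

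The promoters of these genes were read in RefSeq's sequences for GRCm38.p6, from 250 bases before to 50 bases after the start site, which were given for 48 of the 56 genes. Nuclear respiratory factor NRF1 and the estrogen related receptors (ERR) are known to bind promoters of many nuclear genes for mitochondrial proteins, so their motifs were looked up on both strands. The NRF1 palindrome, GCGCA followed by TGCGC, was in 0 of the 48 promoters and in 1.07% of 27025 promoters of all genes. With its sixth base left open (GCGCA, any base, GCGC), it was in 8 of 48 (16.7%) and in 5.19% of all promoters. Among genes called lower it was in 7 of 39 (17.9%), and among those tested and not called in 1 of 8 (12.5%). The ERR motif TNAAGGTCA was in 1 of 48 (2.08%) and in 1.43% of all promoters. The median GC content of the promoters was 59.8% for the set and 52.8% for all genes. The stretches below surround these motifs in genes called lower, with the motif in capitals, written 5′ to 3′ on the strand of the gene. Positions count from the start site of RefSeq's promoter table. For Romo1 that site lies downstream of the start of the counted transcript (base 156144153 of chromosome 2), and for the others the counted transcript has the same start. Where the capitals open with GCGCG, the motif reads on the other strand. The stretches show how the letters lie near the start, and no binding was measured here.
Romo1 (chr2:156143996-156144055, plus strand, motif at -212): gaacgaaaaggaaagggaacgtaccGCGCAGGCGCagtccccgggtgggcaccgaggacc
Chchd4 (chr6:91473585-91473644, minus strand, motif at -196): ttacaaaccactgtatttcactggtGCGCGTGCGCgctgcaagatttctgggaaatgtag
Spg7 (chr8:123065417-123065476, plus strand, motif at -66): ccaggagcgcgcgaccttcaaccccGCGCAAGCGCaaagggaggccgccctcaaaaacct
Spg7 (chr8:123065494-123065523, plus strand, motif at -4): gagccgcactGCGCAGGCGCcgctttcggc
Afg3l1 (chr8:123477794-123477853, plus strand, motif at -43): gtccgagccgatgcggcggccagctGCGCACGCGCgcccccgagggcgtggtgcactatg
Afg3l1 (chr8:123477855-123477884, plus strand, motif at 4): tccgcctgctGCGCGTGCGCgcgcccaggg
Tomm20 (chr8:126945922-126945966, minus strand, motif at -20): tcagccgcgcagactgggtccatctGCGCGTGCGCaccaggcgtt
Phb (chr11:95666977-95667006, plus strand, motif at 31): gagctgcctgGCGCACGCGCagtatccgga
Timm8b (chr9:50603780-50603838, plus strand, ERR motif at -96): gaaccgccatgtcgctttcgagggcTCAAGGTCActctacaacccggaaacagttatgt
Timm8b (chr9:50603909-50603938, plus strand, motif at 19): cgctgccaccGCGCGTGCGCaccccagcga
Timm8b was the single promoter of the set with both motifs, and its RNA fell by 0.64 on the log2 scale. Spg7 and Afg3l1 hold the NRF1 letters at more than 1 place. Tomm20 had 31.6, 31.8, 31.9 and 31.4 CPM in KO, against 45.3, 40.2, 40.1 and 45.9 CPM in controls (-0.44, edgeR adjusted p = 0.00186). Timm9, Tomm22 and Clpx, which are among the genes with the larger falls, are not among the genes found with these letters. Promoters were given for 48 of the 56 genes only, so such absence need not mean a promoter without the letters. Whether the letters have a part in the falls was not tested.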

How the data were processed

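Bulk RNA-seq libraries of brown adipose tissue from 4 KO and 4 control mice were compared. The submitters' processing notes list TopHat2, mm10, HOMER, DESeq 1.8.3 and edgeR. The authors deposited estimated counts per RefSeq transcript over exons without use of strand, per the file headers. These are multiples of 0.5, with 36.9% of values not whole, and were rounded to whole numbers. The authors also deposited their own comparison: counts brought to a common library size (a signal), per the file headers, log2 CPM, the log2 fold change, its linear fold (ratio), p-value and FDR.

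Of 30521 rows, 829 named no gene and were left out (0.0608 to 0.0824% of counts). For the 3969 symbols with several rows the row with the highest total was kept. Genes passing edgeR's filterByExpr (minimum count 10) were tested, KO against control, with the two-sided quasi-likelihood test of edgeR 4.0.16 in R 4.3.3, with TMM factors and Benjamini-Hochberg adjustment over 14178 genes. SEs are approximate (absolute log2 fold change over the root of the F statistic). edgeR's common biological coefficient of variation came to 0.181. The correlation of log2 CPM was 0.985 to 0.991 within KO, 0.963 to 0.981 within control and 0.942 to 0.972 between groups, and no libraries agreed within sampling noise. Alternatives were other scalings, no filter, summed rows, DESeq2 1.42.0, limma 3.58.1 (voom with sample weights) and leaving out libraries. The test script was tested on simulated data. Overlaps and copies (at least 97% identity over 100 bases, BLAST 2.17.0) come from GENCODE M21.

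The genes and lists were chosen with earlier results of these data known. Values in every library are given, per role, for up to 3 called genes with the smallest p and the uncalled gene with the highest CPM, for the 3 lowest and 3 highest log2 fold changes, for up to 3 called genes of each list outside the set, and for Kdm1a. Tomm20 was added to these after its values were seen.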

Additional observations from a re-analysis of the deposited data

Results flagged for a closer look

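Dixon's ratio was above the 95% critical value for a group of 4 in 3 of 112 gene and group combinations of the import and quality control genes, where chance gives about 1 in 20. Chchd3 had 358.8 CPM in KO library 512, against 321.7 to 323.2 CPM in the other KO libraries, and this highest KO value was still below every control. Phb had 54.43 CPM in KO library 516, against 45.88 to 47.16 CPM in the other KO libraries, also below every control. Htra2 had 43.17 CPM in KO library 513, the lowest of its group, against 45.16 to 45.46 CPM in the other KO libraries.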

How the results depend on the processing

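No paired analysis was possible because KO and control libraries carry different numbers. Leaving out 1 library at a time gave 38 to 45 import and quality control genes called lower and 0 higher, a median log2 fold change of -0.43 to -0.38, 1900 to 2655 genes called lower and 1527 to 2260 higher over all genes, 19 to 23 of the genes outside the set called lower and 0 higher, and -1.47 to -1.39 for Kdm1a. The scaling moved counts: all genes called lower were 1625 with upper quartile factors and 930 with library sizes alone, where 4077 were called higher. With library sizes alone 26 genes of the set were called lower, 1 of the set was called higher, and 1 of the genes outside it was called higher. The median of the set was -0.31 with upper quartile factors and -0.22 with library sizes alone. Of 880 comparisons of a single gene of the set with an alternative, 815 kept direction and call, 47 lost the call, 6 gained it and 12 reversed; for the genes outside the set these numbers were 425, 32, 1 and 6. Reversals with library sizes alone were Tomm40l 0.0767, Timm17b 0.0398, Timm21 0.0489, Chchd1 0.0299, Chchd6 0.175, Chchd7 0.014, Pmpca 0.00321, Immp2l 0.0153, Htra2 0.0409, Mipep 0.104 and Oma1 0.126, and with upper quartile factors Chchd6 0.0773, Mipep 0.00744 and Oma1 0.0311. Leaving out 1 library at a time gave -0.0532 to 0.0203 for Chchd6 (above 0 without KO 515 or control 511), -0.108 to 0.122 for Atf4 (below 0 without KO 513 or control 517), -0.192 to 0.0173 for the log2 ratio Timm8a1/Timm8b, KO minus control (above 0 without KO 512, KO 513 or control 518) and -0.125 to 0.201 for the log2 ratio Immp1l/Immp2l, KO minus control (above 0 without KO 516 or control 518). The cause of these changes was not tested. Depth limits Tomm20l, Timm8a2 and Pam16. Overlapping genes and near-identical copies limit single levels: 6 genes have over 20% of their bases opposite another gene and 6 have over 20% in copies.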
